A study of Mus musculus with 4 samples.

Results

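Integrins are cell surface receptors for the extracellular matrix, and 9 genes that encode their subunits were followed in mouse embryonic stem cells without Suz12 (Suz12KO) and in wild-type (WT) cells. The members were all probe sets, the groups of short probes that report on 1 transcript, whose single gene symbol in the array's annotation was Itgb1, Itgb5, Itgb3, Itgav, Itga5, Itga3, Itga6, Itga7 or Itga9. This gave 30 probe sets, of 45101 on the array and 34945 with 1 gene symbol. The study measured messenger RNA on 4 Affymetrix arrays, 2 for Suz12KO cells and 2 for WT cells, both labelled as embryonic stem cells. Polycomb repressive complex 2 needs its subunit Suz12 to methylate lysine 27 of histone H3, a mark of silenced genes. Each genotype's RNA came from 3 clones and was combined in equal amounts, per the labels, so spread between clones cannot be seen. The labels name neither the Suz12 allele nor the age or treatment of the cultures, and they are silent on whether a genotype's 2 arrays received separate RNA. All p-values below therefore measure the spread between arrays, which may be technical.

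Each integrin is a pair of 1 alpha and 1 beta subunit that binds matrix proteins outside the cell and, through talin and kindlin, the actin cytoskeleton inside it. Itgb1 encodes the beta chain shared by most of the alpha chains described here, and mouse embryonic stem cells that lack it attach poorly to fibronectin and laminin. Itgav and Itga5 encode alpha chains that recognise the tripeptide RGD in fibronectin and vitronectin, and Itga3, Itga6 and Itga7 encode alpha chains of laminin receptors.

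The promoter windows of Itgb1, Itgav and Itga3, which had lower signal in Suz12KO, are shown with that of Itgb5, a beta subunit that passed the test with none of its probe sets, because Polycomb repressive complex 2 is found mainly at promoters rich in CpG dinucleotides. The sequences are from RefSeq, build GRCm38.p6, and run 5′ to 3′ on the gene's strand from 250 bases before to 50 bases after the annotated start. Capitals mark CpG dinucleotides. The windows are chr8:128685404-128685703 on the + strand for Itgb1, chr2:83724147-83724446 on the + strand for Itgav, chr11:95076665-95076964 on the - strand for Itga3 and chr16:33829415-33829714 on the + strand for Itgb5.
Itgb1: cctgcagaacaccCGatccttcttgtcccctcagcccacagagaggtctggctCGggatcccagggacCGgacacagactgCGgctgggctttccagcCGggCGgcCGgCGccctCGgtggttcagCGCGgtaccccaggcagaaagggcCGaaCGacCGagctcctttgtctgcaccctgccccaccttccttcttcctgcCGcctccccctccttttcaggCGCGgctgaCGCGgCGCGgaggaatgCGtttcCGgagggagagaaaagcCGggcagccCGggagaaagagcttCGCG
Itgav: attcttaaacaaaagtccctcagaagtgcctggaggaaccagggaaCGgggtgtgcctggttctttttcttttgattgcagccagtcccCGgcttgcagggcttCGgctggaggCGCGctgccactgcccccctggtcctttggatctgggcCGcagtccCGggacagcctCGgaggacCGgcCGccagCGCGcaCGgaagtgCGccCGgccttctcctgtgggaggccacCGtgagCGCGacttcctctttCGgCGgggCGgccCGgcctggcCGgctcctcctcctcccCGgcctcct
Itga3: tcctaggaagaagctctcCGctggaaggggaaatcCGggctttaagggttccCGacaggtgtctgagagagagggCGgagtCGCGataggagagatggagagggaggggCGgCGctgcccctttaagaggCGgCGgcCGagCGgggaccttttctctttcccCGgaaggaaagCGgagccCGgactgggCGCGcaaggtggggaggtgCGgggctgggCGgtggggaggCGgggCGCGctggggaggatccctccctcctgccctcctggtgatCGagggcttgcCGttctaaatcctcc
Itgb5: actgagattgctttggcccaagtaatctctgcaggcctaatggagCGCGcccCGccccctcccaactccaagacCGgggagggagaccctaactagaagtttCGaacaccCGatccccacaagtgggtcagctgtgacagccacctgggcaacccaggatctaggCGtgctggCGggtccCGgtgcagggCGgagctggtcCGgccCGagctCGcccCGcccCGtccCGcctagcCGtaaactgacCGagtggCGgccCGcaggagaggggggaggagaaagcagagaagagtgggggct

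All 4 windows were rich in CpG. Itgb1 had 27 CpG, Itgav 24, Itga3 24 and Itgb5 20, against a median of 7 over 32851 promoter windows of the same length. Those 32851 include windows that start inside a gene, such as that of Itga9, whereas all 4 windows shown lie near the start of the gene. The ratio of observed to expected CpG was 0.798 for Itgb1, 0.708 for Itgav, 0.768 for Itga3 and 0.619 for Itgb5, and 21.1%, 28.4%, 23.5% and 34.5% of all windows had at least that ratio, in the same gene order. Itgb5 had the lowest ratio of the 4. Of the member windows not shown, that of Itga5 had 13 CpG (ratio 0.504), that of Itga9 10 (0.42) and a second one of Itga3 5 (0.244). A link between CpG content and the change in signal was not tested. The GC box GGGCGG, searched on both strands, lay in all 4 windows and in 35.7% of all windows. It was found once in Itgb1 and Itgav, and 3 times in Itga3 and Itgb5. The motif GGAATG, which TEAD factors bind, lay in the Itgb1 window from base -7 and in 14.7% of all windows, and in none of the other member windows. No member window held the TATA box TATAAA (13.6% of all windows) or a CArG box, the site of serum response factor (1.6%). The AP-1 motif TGANTCA (7.8%) lay in the Itga9 window and in a second Itga3 window, both of which start inside the gene. Windows were at hand for 6 of the 9 genes and not for Itga6, Itga7 and Itgb3.

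Across the 4 arrays, the median signal was 171 to 202. In each array the mean after trimming the lowest and highest 2% of probe sets was 500.003, so only changes relative to the bulk of the array can be read. The 27 probe sets for bacterial spike RNA read low in every array, and the highest of them, 195 and 174 in the Suz12KO arrays and 141 and 191 in the WT arrays, was taken as the background level. Log2 values of the tested probe sets correlated at 0.908 between the Suz12KO arrays, at 0.929 between the WT arrays and at 0.882 to 0.896 between genotypes, across probe sets, which are not independent. The ratio of 3' to 5' signal was 0.889 and 0.871 in Suz12KO against 0.807 and 0.756 in WT for Gapdh, and the groups lay closer for Actb (1.14 and 1.14 against 1.15 and 1.16) and overlapped for Tfrc (2.43 and 2.84 against 2.55 and 2.47). The part of RNA quality in the results below was not tested. The brightest Suz12 probe set read 217 and 369 in Suz12KO and 1097 and 1094 in WT, a log2 fold change of -1.89 (SE 0.27, limma adjusted p = 0.0033). In all, 3 of its 6 probe sets were called lower, and their average was not called (-1.67, limma adjusted p = 0.0602). The sources used here do not say which exons were removed.

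Integrin signals were lower in Suz12KO for Itgb1, Itgav and Itga3, and mixed for Itga6. No probe set of Itgb5, Itga5 or Itga7 was called. The genotypes did not overlap in any of the 4 Itgb5 probe sets, in that of Itga7 or in the brightest of Itga5. Suz12KO was above WT in Itgb5 1456133_x_at and in Itga7, and below WT in the others. Nor did the genotypes overlap in the dim Itga5 probe sets 1457561_at (Suz12KO above WT) and 1458996_at (Suz12KO below WT). Such separation was common: 23.7% of all tested probe sets had both Suz12KO arrays below both WT arrays, and 26.3% had both above. Itga9 and Itgb3 were close to background. A probe set was tested when its mean level reached the 30th percentile of all probe sets with 1 gene symbol, and 22 of the 30 did. Of these 22, limma (all adjusted p-values are Benjamini-Hochberg values over 24461 tested probe sets) called 7 lower, 0 higher and 15 neither, at an adjusted p under 0.05. Of all tested probe sets, 3.99% were called lower, 2.82% higher and 6.81% either way. At an unadjusted p under 0.05, 9 members were lower and 0 higher, where 19.9% of all tested probe sets passed in either direction. The median log2 fold change, taken on log2(signal + 16), was -0.45 for the 22 integrin probe sets and 0.022 for all tested ones. The 7 calls fell in 4 genes.

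**Figure D1:**
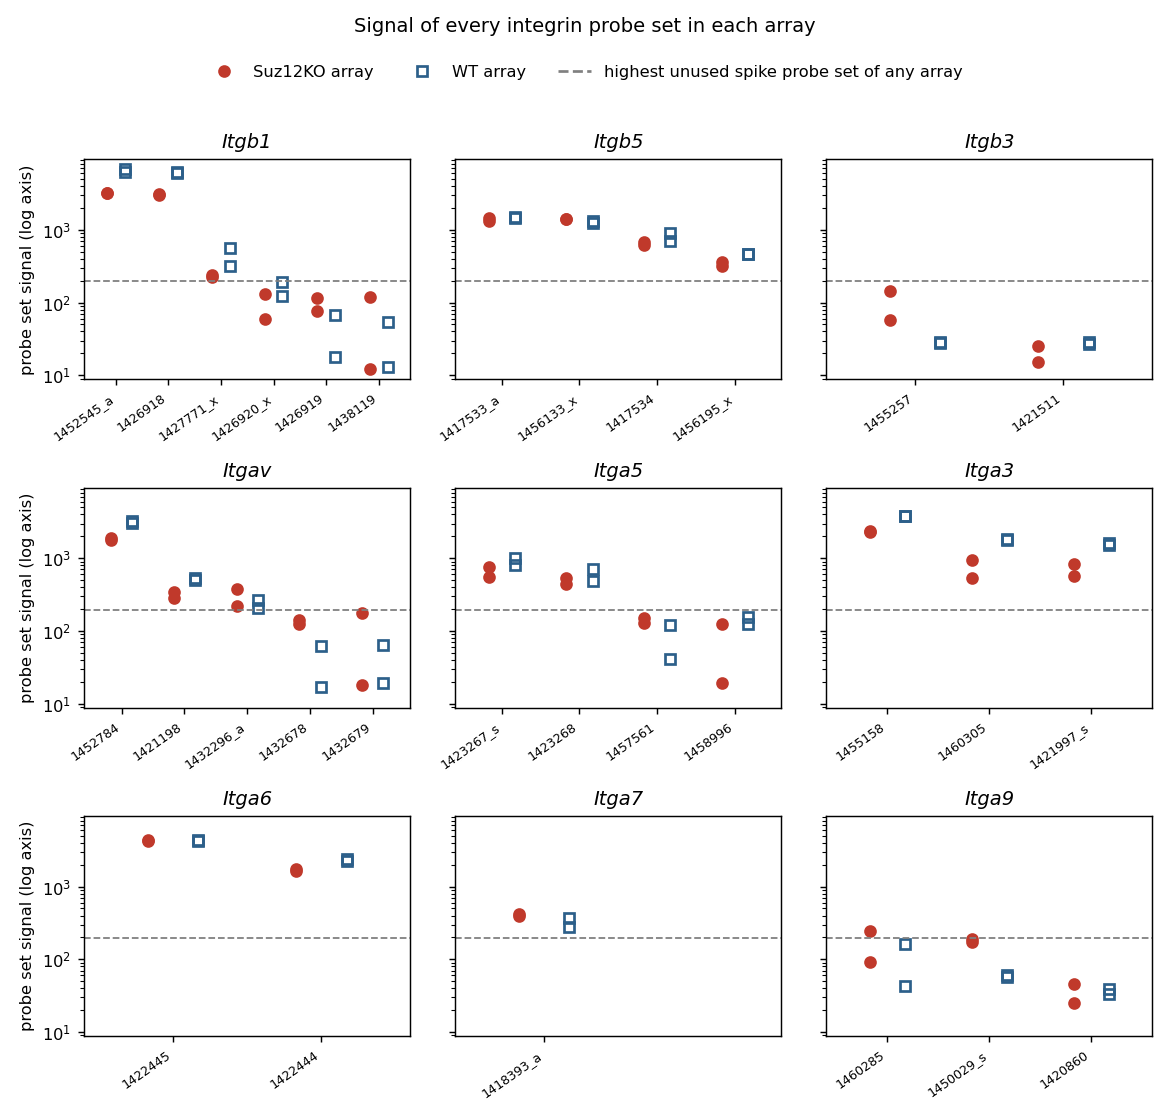
Signal of all 30 integrin probe sets in each array (log axis, arbitrary units), with Suz12KO arrays as filled circles and WT arrays as open squares, 1 panel per gene and probe sets ordered by mean log2 signal. The dashed line is the highest spike probe set of any array (195), and both Suz12KO arrays lie below both WT arrays for the 2 brightest Itgb1 probe sets and for every Itga3 probe set.

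In all, 18 probe sets of 7 genes lay above the highest spike in all 4 arrays. In 13 of these 18 both Suz12KO arrays lay below both WT arrays, in 2 both lay above, and in the others the groups overlapped. Among the 22 tested probe sets, 13 had both Suz12KO arrays below and 4 had both above, where 23.7% and 26.3% of all tested probe sets did so. The remaining 12 of the 30 members were at or under the spike level in at least 1 array, and 9 of them in every array, so they carry little information on these genes.

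Itgb1 showed the change with the smallest adjusted p among the members. Its brightest probe set, 1452545_a_at, read 3257 and 3220.4 in Suz12KO, against 6297 and 6797 in WT. The groups did not overlap, and the Suz12KO mean was 0.495 of the WT mean (3239 ± 26.1 against 6547 ± 354, SD, n = 2 each). The log2 fold change was -1.01 (SE 0.079, limma adjusted p = 0.00013). A second probe set, 1426918_at, read 3102 and 3023 in Suz12KO and 5967 and 6166 in WT, a log2 fold change of -0.98 (SE 0.078, limma adjusted p = 0.00013). Both thus gave nearly the same size of fall. The dimmer 1427771_x_at read 239 and 227 in Suz12KO and 318 and 556 in WT, with a log2 fold change of -0.81 that did not pass (SE 0.36, limma adjusted p = 0.259). It had no overlap either, but its WT arrays differed widely. The other 3 Itgb1 probe sets read 12.0 to 131 in Suz12KO and 13.2 to 193 in WT, with all but 1 reading under the highest spike of its array. The groups overlapped in 1426920_x_at and 1438119_at. In 1426919_at, which was not tested, both Suz12KO arrays (116 and 75.6) lay above both WT arrays (66.6 and 17.7).

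With the mean of all 6 probe sets Itgb1 was no longer called (-0.33, limma adjusted p = 0.531), an average that gives the probe sets near background the same weight as the bright ones.

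Itgb5, a beta chain that pairs with Itgav in a vitronectin receptor, was called with none of its 4 probe sets, all of them above background. The brightest, 1417533_a_at, read 1317 and 1441 in Suz12KO and 1469 and 1504 in WT (log2 fold change -0.11, 95% interval -0.39 to 0.17). Probe set 1456133_x_at read 1389 and 1399 in Suz12KO and 1231 and 1325 in WT, a log2 fold change of 0.12 (-0.16 to 0.41) that became -0.043 when each array was centred on its median. The signs of these probe sets differed, and each interval includes 0. Probe set 1417534_at read 628 and 683 in Suz12KO and 899 and 702 in WT (-0.27, interval -0.72 to 0.17), and 1456195_x_at read 321 and 361 against 472 and 469 (-0.45, interval -1.05 to 0.15). These intervals leave room for a fall of the size seen for Itgb1 in the dimmest probe set, but not in the other 3.

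Itgb3, the beta chain that forms the platelet and osteoclast integrins, was not measurable. Its probe sets read 15.3 to 145 in Suz12KO and 27.1 to 28.7 in WT, under the highest spike of the same array throughout, and neither was tested.

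Itgav, the alpha chain of the vitronectin receptors, was lower in the brightest of its 5 probe sets. Probe set 1452784_at read 1882 and 1776 in Suz12KO, against 3022 and 3221 in WT. The Suz12KO mean was 0.586 of the WT mean, with no overlap, and the log2 fold change was -0.77 (SE 0.10, limma adjusted p = 0.0020). Probe set 1421198_at read 285 and 346 in Suz12KO and 539 and 500.1 in WT, a similar log2 fold change of -0.70 that did not pass (SE 0.27, limma adjusted p = 0.187). Probe set 1432296_a_at read 373 and 220.4 in Suz12KO and 262 and 204 in WT, so that the groups overlapped (0.30, and -0.063 without Suz12KO replicate 1). The other 2, at 18.2 to 178 in Suz12KO and 17.2 to 63.6 in WT, did not reach the level for testing. Of these, 1432678_at had both Suz12KO arrays (124 and 143) above both WT arrays (62.9 and 17.2), all under the highest spike of the same array. Averaging all 5 gave 0.20 (limma adjusted p = 0.803), so the direction for Itgav rests on its 2 brightest probe sets.

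Itga5, the alpha chain of the main fibronectin receptor, was not called. Its brightest probe set, 1423267_s_at, read 551 and 749 in Suz12KO and 1021 and 812 in WT, with a log2 fold change of -0.49 (SE 0.21, interval -0.97 to -0.012, limma adjusted p = 0.240). The groups did not overlap, but the arrays within each genotype lay nearly as far apart as the genotypes, and leaving out 1 array gave -0.71 (without Suz12KO replicate 2) to -0.28 (without Suz12KO replicate 1). Probe set 1423268_at read 538 and 442 in Suz12KO and 704 and 480.5 in WT, with overlap (-0.25, and 0.022 without WT replicate 1). The other 2 probe sets read 19.0 to 148 in Suz12KO and 40.4 to 156 in WT, and lay at or under the spike level in all arrays but 1.

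Itga3, which encodes the alpha chain of a laminin receptor of epithelia, was lower in all 3 of its probe sets. The brightest, 1455158_at, read 2399 and 2319 in Suz12KO, against 3777 and 3795 in WT. This was a log2 fold change of -0.68 (SE 0.088, limma adjusted p = 0.0019), and the Suz12KO mean was 0.623 of the WT mean (2359 ± 56.7 against 3786 ± 12.8, SD, n = 2 each). Probe set 1460305_at read 540 and 939 in Suz12KO and 1830.2 and 1781 in WT (-1.32, SE 0.23, limma adjusted p = 0.0089). Probe set 1421997_s_at read 838 and 573 in Suz12KO and 1504 and 1609 in WT (-1.15, SE 0.19, limma adjusted p = 0.0074). The groups did not overlap in any of the 3, and the fall in the 2 dimmer ones was larger but less even between the Suz12KO arrays, with 1460305_at at -1.71 without Suz12KO replicate 2 and -0.93 without Suz12KO replicate 1. Itga3 was also called when its probe sets were averaged (-1.05, limma adjusted p = 0.0024).

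Itga6, the laminin receptor chain that is also used as a surface marker of stem cells, gave different answers in its 2 probe sets, both well above background. Probe set 1422445_at read 4281 and 4393 in Suz12KO and 4210.0 and 4330 in WT. The groups overlapped, and the log2 fold change was 0.022 with a 95% interval of -0.15 to 0.20, which does not include a fall of the size measured for Itgb1, Itgav or Itga3. Probe set 1422444_at read 1634 and 1746 in Suz12KO, against 2379 and 2282 in WT. Here the groups were apart, with a log2 fold change of -0.46 (SE 0.11, limma adjusted p = 0.034). That call was lost without any 1 of the 4 arrays (limma adjusted p 0.0579 to 0.155) and with quantile normalization (-0.42, limma adjusted p = 0.0512). The difference between the 2 probe sets was not tested, and the sources used here do not place either within the transcript.

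Itga7, the alpha chain of the muscle laminin receptor, has 1 probe set, which read 424 and 390.4 in Suz12KO and 277 and 375 in WT. It was not called (log2 fold change 0.32, SE 0.30, limma adjusted p = 0.615). Both Suz12KO arrays were above both WT arrays, as in 26.3% of all tested probe sets. Itga9, a receptor chain for tenascin, lay near background. Its probe set 1450029_s_at read 192 and 173 in Suz12KO and 61.2 and 56.2 in WT, all under the highest spike of the same array, with a log2 fold change of 1.41 that did not pass (SE 0.70, limma adjusted p = 0.311). Of its other probe sets, 1460285_at read 241 and 92.0 in Suz12KO and 42.2 and 161 in WT (0.72, and -0.086 without WT replicate 1), and 1420860_at read 25.0 to 46.1 in all arrays.

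**Figure D2:**
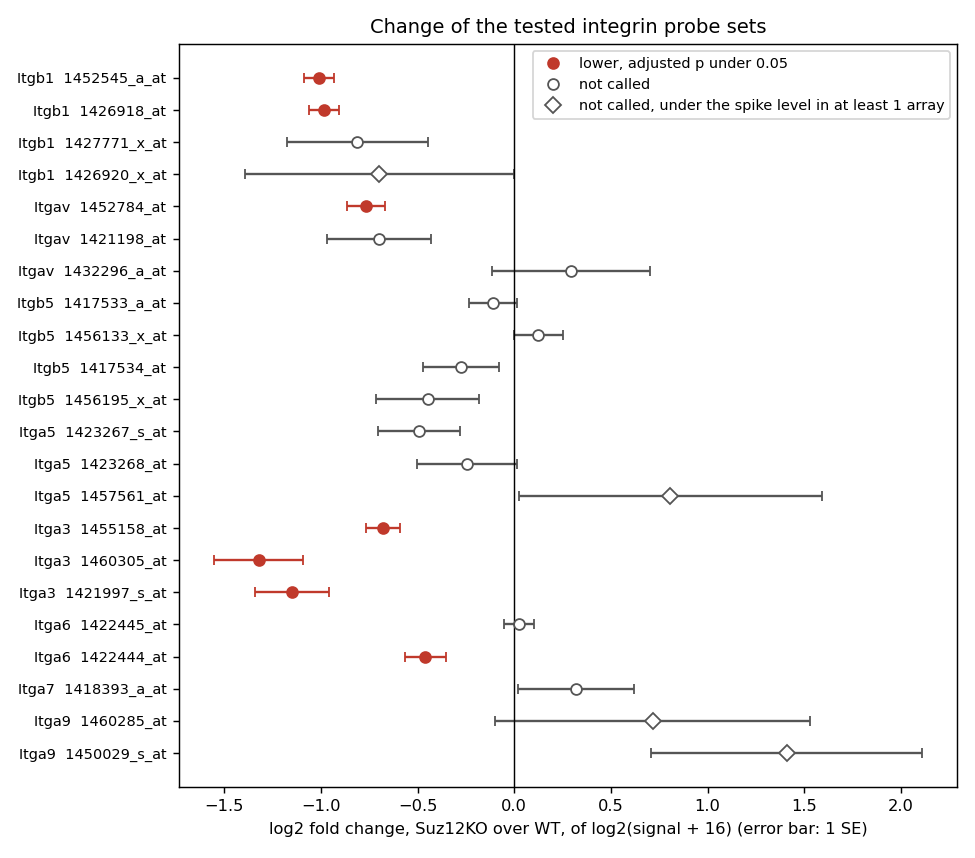
Log2 fold change, Suz12KO over WT, of the 22 tested integrin probe sets, grouped by gene, with 1 SE from limma as the error bar. Filled red points are the 7 called lower, in Itgb1, Itgav, Itga3 and Itga6, open circles were not called, and open diamonds were at or under the spike level in at least 1 array.

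The 7 calls depended on modelling the spread as a function of signal level. When limma was run without that trend, 0 of all 24461 probe sets were called at an adjusted p under 0.05 (smallest 0.165, with 3673 at an unadjusted p under 0.05), and 8 integrin probe sets were lower and 1 higher at an unadjusted p under 0.05. Under the fit with the trend, the called members all lay in the brighter range of the array, where the modelled spread is small, and the dim members had wide errors.

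**Figure D3:**
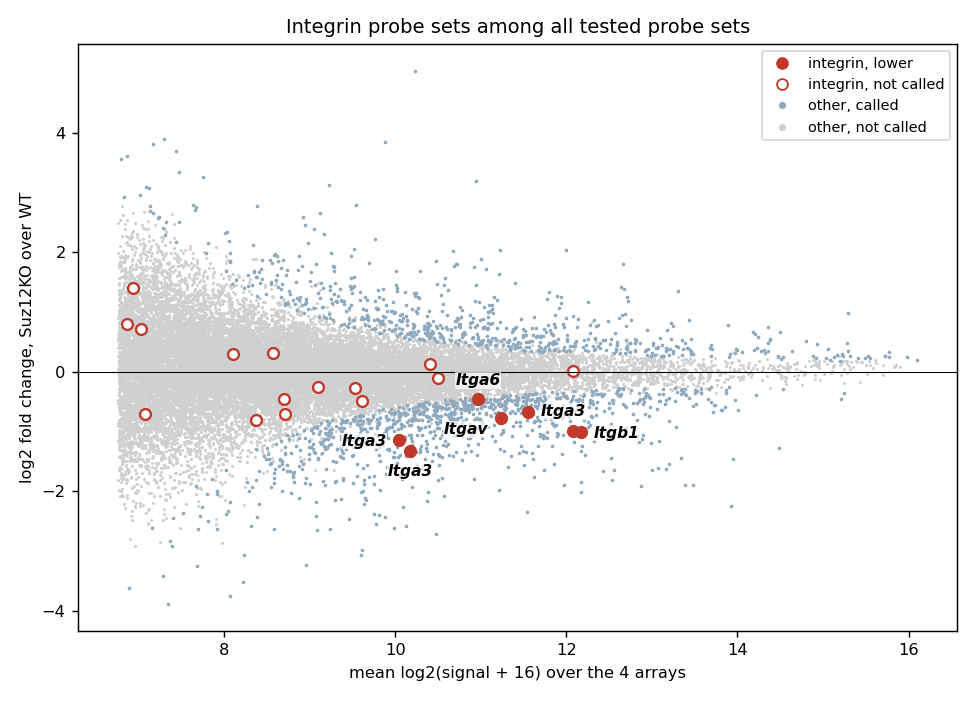
Log2 fold change, Suz12KO over WT, against mean log2(signal + 16) over the 4 arrays for 24461 tested probe sets, with the 22 integrin probe sets as red circles. The 7 filled red circles (the 2 adjoining ones at the right share the label Itgb1) lie below 0 among bright probe sets, and the integrin probe sets that were not called lie on both sides of 0.

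Other genes of the adhesion system were taken by the brightest probe set of each gene. By that measure 3 of the 8 tested member genes were lower (Itgb1, Itgav and Itga3) and 0 higher, where 4.23% of 14082 such genes were called lower and 3.46% higher. Of 17 further integrin subunits, mostly of blood cells and epithelia, 15 had a probe set used here, 8 were tested and 0 were called lower or higher by limma. In 6 of the 15 all arrays were at or under the spike level. The brightest were Itga2b, the platelet alpha chain, at 584 and 1049.9 in Suz12KO and 480 and 469 in WT (0.71, SE 0.28, limma adjusted p = 0.193, but 0.0272 and called higher without Suz12KO replicate 1), and Itgb7, a lymphocyte beta chain, at -0.049.

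Of RGD-containing and other matrix ligands of integrins, not only of the 9 subunits followed here, 5 of 10 tested genes of a list of 14 were called lower and none higher. The median log2 fold change was -0.81. With quantile normalization, the brightest probe set per gene or the replicate block, 1 was called higher. Thrombospondin 1, Thbs1, an adhesive glycoprotein, read 1260.0 and 1360.2 in Suz12KO and 6558 and 6830 in WT, a log2 fold change of -2.34 (SE 0.092). Nephronectin, Npnt, a basement membrane ligand, fell by 1.47, and the matricellular proteins Ccn1 (-0.996) and Ccn2 (-0.72) fell as well. Fibronectin, Fn1, the main ligand of the Itga5 receptor, read 7213 and 6868 in Suz12KO and 12917 and 12108 in WT (-0.83, SE 0.067, limma adjusted p = 0.00015). Fn1 and Ccn2 are named after their values were seen. Vtn, which encodes vitronectin, was at 59.7 and 93.2 in Suz12KO and 15.0 and 59.8 in WT, under the spikes. With averaged probe sets the calls of Npnt (-0.87) and Fn1 (-0.40) were lost, and that of Npnt also without WT replicate 1 or WT replicate 2 (limma adjusted p 0.0515 and 0.125).

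Of laminin chains and nidogens, the ligands of the Itga3, Itga6 and Itga7 receptors, none of 11 tested genes was called lower. Lama1, the alpha chain of the laminin of early embryos, rose, at 1417 and 1134 in Suz12KO and 238 and 247 in WT (2.31, SE 0.22, limma adjusted p = 0.00035). The other 10 did not pass, but 2 genes of the list were called higher under 6 of the alternatives (a pseudocount of 64, quantile normalization, the filter at the 50th percentile, the brightest probe set per gene, suffix-free probe sets and the replicate block). Nidogen 1, Nid1, named after its values were seen, was closest to the threshold (0.48, limma adjusted p = 0.0507). The list median of 0.059 became -0.11 after centring and -0.041 with averaged probe sets.

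Cytoplasmic partners, which join integrin tails to actin and to signalling, were called lower in 9 of 26 tested genes. The list median was -0.32, and 1 gene was called higher. The number higher was 2 without either Suz12KO array and 4 with the replicate block. The largest falls were those of Tgfb1i1, the focal adhesion scaffold Hic-5 (-1.35), integrin-linked kinase, Ilk (-1.32), and zyxin, Zyx (-1.08). Ilk, which binds the tails of beta chains, read 1722 and 1388 in Suz12KO and 4131 and 3673 in WT. Tensin 3, Tns3, a focal adhesion protein, rose (0.68). Named after their values were seen, vinculin, Vcl (-1.06), and the integrin activators talin 1, Tln1 (-0.54), and kindlin 2, Fermt2 (-0.40), also fell. Tln1 lost its call without WT replicate 1 or Suz12KO replicate 1 (limma adjusted p 0.0709 and 0.0580), and Fermt2 lost its own without any 1 array other than Suz12KO replicate 2 (limma adjusted p 0.0579 to 0.0962). With averaged probe sets neither was called (-0.45 and -0.062).

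Membrane proteins that associate with integrins moved both ways, with 4 of 10 tested genes lower (1 with suffix-free probe sets, 2 with averaged ones) and 3 higher. The largest falls were those of caveolin 1, Cav1 (-2.10), the tetraspanin Cd151, a close partner of the Itga3 chain (-0.80), and the syndecan Sdc1 (-0.74). The syndecan Sdc4, a fibronectin co-receptor (1.09), the tetraspanin Cd9 (0.62) and Slc3a2, the heavy chain of amino acid transporters that also binds beta chains (0.45), rose. Cd151 read 2308 and 2599 in Suz12KO and 4024 and 4533 in WT, and Cd9 read 4619 and 4428 in Suz12KO and 2927 and 2952 in WT, so the groups did not overlap for either. Averaging probe sets ended the calls of Cd151 (-0.47) and Sdc1 (-0.79), and centring that of Slc3a2 (0.28).

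Markers of embryonic stem cells and of other cell types were read in the same way. Of 23 fibroblast markers with a probe set used here, 19 were tested, 7 were called lower and 0 higher. With the filter at the 50th percentile, the brightest probe set per gene or the replicate block, 1 was called higher. The summed signal of the 23 was 27514 and 27705 in Suz12KO, against 89341 and 92312 in WT. Most of it came from Acta2 and, named after their values were seen, Tagln and Vim. In WT these read 33742 and 33855, 20226 and 21055, and 25141.5 and 26968. In Suz12KO they read 6821 and 7422, 5388 and 5755, and 9444 and 9595, in the same gene order. Col1a1 (-2.58), Acta2 (-2.25, and -1.08 when its probe sets were averaged) and Col3a1 (-2.12, and -1.37 with no call when averaged) fell most, and Dcn, Lum, Pdgfrb and Postn were at or under the spike level in all 4 arrays. Without probe sets carrying an s, x or a suffix 4 were called lower. Of the 12 tested fibroblast markers not called, some had values above 0 and the others values below 0. Those above 0, named after their values were seen, were Lum (1.13), Col6a2 (0.70, limma adjusted p = 0.0656), Thy1 (0.41), Col6a3 (0.31) and Prrx1 (0.29). Of 14 markers of embryonic stem cells, all above background in every array, 13 were called higher and 0 lower. After centring, 8 were called higher. The 13 included Nanog (2.04), Klf4 (2.03) and Fgf4 (1.81). The summed signal of the 14 was 147190.0 and 151090.0 in Suz12KO and 88594 and 88784 in WT. Of 8 tested trophoblast markers, the keratins Krt8 (-1.91) and Krt18 (-1.43) fell, and of the other 6, none called, 5 had values above 0 (list median 0.50). Among them were Hand1 (0.87), Cdx2 (0.78) and Tfap2c (0.72, limma adjusted p = 0.0504), named after their values were seen, and 1 or 2 of the list were called higher under 8 of the alternatives. Krt8 and Krt18 together summed to 10008 and 10269 in Suz12KO and 31971 and 31068 in WT, while the other trophoblast markers summed to 3683 and 3289 in Suz12KO and 2413 and 2379 in WT. Sparc (-0.59, and -0.36 with no call when averaged) fell among 10 tested endoderm markers, and none of 4 haematopoietic markers was called, among them Kit (0.96, limma adjusted p = 0.0515) and Cd68 (-0.063). Kit was called higher under 5 of the alternatives (limma adjusted p 0.0300 to 0.04999), with a pseudocount of 64, the filter at the 50th percentile, the brightest probe set per gene, robust estimation or the replicate block. Summed signals were 20960.0 and 21353 in Suz12KO against 28700.4 and 27362 in WT for endoderm markers. Most of this endoderm signal was Sparc, at 11866.5 and 12159 in Suz12KO against 18873.5 and 17287 in WT. For haematopoietic markers the sums were 1900.4 and 1568 in Suz12KO against 1512 and 1656 in WT. In bulk RNA, fewer cells of a type and less RNA per cell cannot be told apart, and the part of these marker shifts in the integrin results was not tested.

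**Figure D4:**
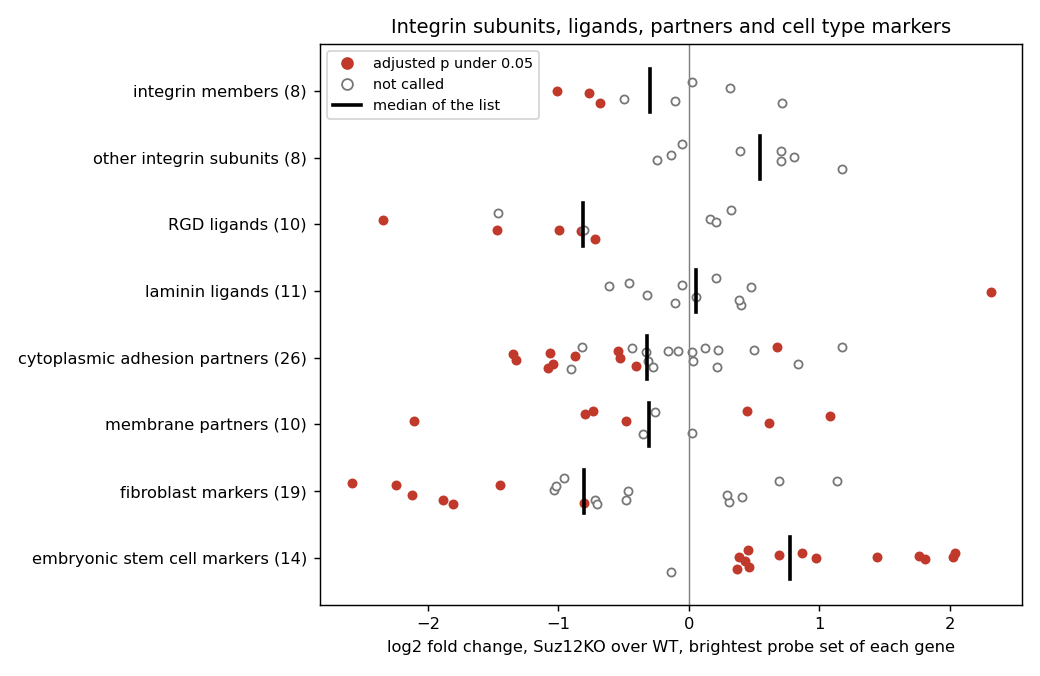
Log2 fold change, Suz12KO over WT, of the brightest probe set of each tested gene in 8 lists (number of genes in brackets), with called genes in red, other genes open and the list median as a black bar. The points are spread vertically for legibility, and the fibroblast marker median (-0.80) lies left of 0 and the embryonic stem cell marker median (0.78) right of 0.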

How the data were processed

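Per the labels, biotin-labelled targets were made from pooled total RNA by the supplier's method. The values the authors deposited are linear signal intensities per probe set, whose trimmed mean was equal in all 4 arrays. The sources used here do not name the summarisation software. By GEO's platform annotation, 34945 probe sets carried a single symbol and were used, whereas 932 with several, 9160 with none and 64 controls were left out. Cyr61 and Ctgf were matched as Ccn1 and Ccn2 through RefSeq synonyms. Values were taken as log2(signal + 16), which understates changes of dim probe sets. A filter at the 30th percentile of mean level kept 24461 probe sets, tested with limma 3.58.1 in R 4.3.3 (lmFit, eBayes with trend, two-sided, Benjamini-Hochberg adjustment, prior degrees of freedom 7.04). A gene outside the members was represented by its probe set of highest mean log2 signal. The rule for names took all members and, from each list, up to 3 called genes in each direction by size of change, or its 2 brightest genes if it had no call. Members and lists were chosen with earlier results of these data known. The fit was tested on simulated data. Alternatives were the pseudocount (1 or 64), quantile normalization, median centring, no filter or one at the 50th percentile, the brightest or the mean probe set per gene, suffix-free probe sets (no s, x or a), eBayes without trend or robust, a replicate block and leaving out each array. Figures were drawn with matplotlib 3.10.9.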

Additional observations from a re-analysis of the deposited data

How the results depend on the processing

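Over 16 alternatives, 7 integrin probe sets were called lower, except for 6 with quantile normalization and without any 1 array, 5 with only suffix-free probe sets, 3 with the brightest probe set per gene, 1 with averaged probe sets and 0 without the trend in eBayes. The main fit tested 22 members and called 3.99% of all tested probe sets lower. Suffix-free probe sets left 12 members, with 3.313% of all called lower. The brightest probe set per gene left 7 members (5.497% of all lower), and averaged ones also 7 (2.403%). The counts of 5 and 3 are thus not smaller shares of the tested members than in the main fit, whereas the count of 1 is. The alternatives with fewer probe sets thus also tested fewer members. None was called higher under any of them. The median change of the integrin probe sets ranged from -0.52 to -0.37 without 1 array, and was -0.26 without a filter and -0.22 with averaged probe sets. Centring each array shifted the median log2 fold change of all tested probe sets to -0.15 (0.022 uncentred) and gave 364 probe sets higher and 1660 lower, against 690 and 977 uncentred, so the higher share of the calls was 18.0%, against 41.4%. It turned Itga6 1422445_at to -0.15, Itgb5 1456133_x_at to -0.043 and the laminin median to -0.11. Averaged probe sets gave 305 higher and 306 lower and turned Itga6 to -0.22, Itgav to 0.20 and the laminin median to -0.041. Suffix-free probe sets gave 452 and 626 and a membrane partner median of 0.029. Without the trend there were 0 and 0. The arrays share only a replicate number (correlation of their deviations 0.0081), and with the replicate block 1205 were higher and 1531 lower, with 7 integrin probe sets lower. Leaving out 1 array gave 419 to 624 higher (423 or fewer without either Suz12KO array) and 615 to 1007 lower (639 without WT replicate 1, 615 without WT replicate 2). It gave ranges of -0.51 to 0.022 for Itga5 1423268_at, -0.086 to 1.52 for Itga9 1460285_at, -0.063 to 0.65 for Itgav 1432296_a_at, -0.90 to 0.81 for Itgb7, -0.42 to 0.29 for Cd68 and -0.64 to 0.12 for the haematopoietic markers median, so none of these has a settled direction. The Itgb7 value was 0.47 without WT replicate 2, Cd68 was 0.12 without WT replicate 1 and the haematopoietic median was 0.018 without WT replicate 2. The cause of these shifts was not tested. The number of arrays and the signal over background limit what can be seen for Itga9 and Itgb3.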
